A study of Mus musculus with 20 samples.

Results

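The growth hormone signaling axis was described in mouse liver through 10 genes, Ghr, Prlr, Stat5a, Stat5b, Socs2, Cish, Bcl6, Cux2, Igf1 and Igfals. They were chosen by gene symbol as receptors, transcription factors, feedback genes and secreted output, out of 56884 genes in the RNA-seq table for males and 18149 in the table for females, and all 10 were found once in each table. In each sex, RNA-seq covered 6 livers taken at 11 to 14 weeks of age, 3 of them WT and 3 Midn-T. The labels give the WT mice the genotype Midn XTR, in which the gene-trap cassette in Midn has not been inverted, and the Midn-T mice the genotype Midn TR, in which Cre has inverted it so that the transcript ends after exon 2. Cre was driven by the albumin promoter, so the trap is aimed at hepatocytes, and its state in other liver cells was not examined here. The sources used here do not say whether the WT mice carried Cre.

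The value available for each gene is the authors' mean normalized count over the 6 livers of 1 sex, WT and Midn-T together. No value for a single liver was used, so no spread can be given, no test was made, and the depth of each library is unknown. WT and Midn-T were not compared here. The comparison that these values allow is female against male liver, with both genotypes averaged within each sex. The tables were normalized separately, so ratios between them were rescaled to set the median ratio of 12962 protein-coding genes to 1, a shift of 0.03 on the log2 scale. Sex cannot be told apart from any difference in handling between the male and the female libraries.

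Growth hormone from the pituitary binds its receptor on hepatocytes, which activates the kinase JAK2 and then the transcription factors STAT5A and STAT5B. Active STAT5 switches on Igf1, the main circulating growth factor of the axis, and also Socs2 and Cish, whose products damp the receptor's signal. In rodents the hormone is released in separated pulses in males and more evenly in females. BCL6 and CUX2 are known as STAT5-dependent regulators of sex-biased liver genes.

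Of the 10 genes, Cux2, Prlr and Socs2 had a female mean over 2-fold above the male mean, and Bcl6 had a male mean over 2-fold above the female mean. The other 6, Ghr, Stat5a, Stat5b, Cish, Igf1 and Igfals, lay within 2-fold. Among all 16283 genes with a mean of at least 10 in both tables, 2.14% were over 2-fold higher in females and 1.43% over 2-fold higher in males. All 10 axis genes passed that minimum. Their median log2 ratio of female over male was 0.41, against 0.03 over the 16283 genes, and 8 of the 10 were above 0, as were 53.5% of all 16283.

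**Figure D1:**
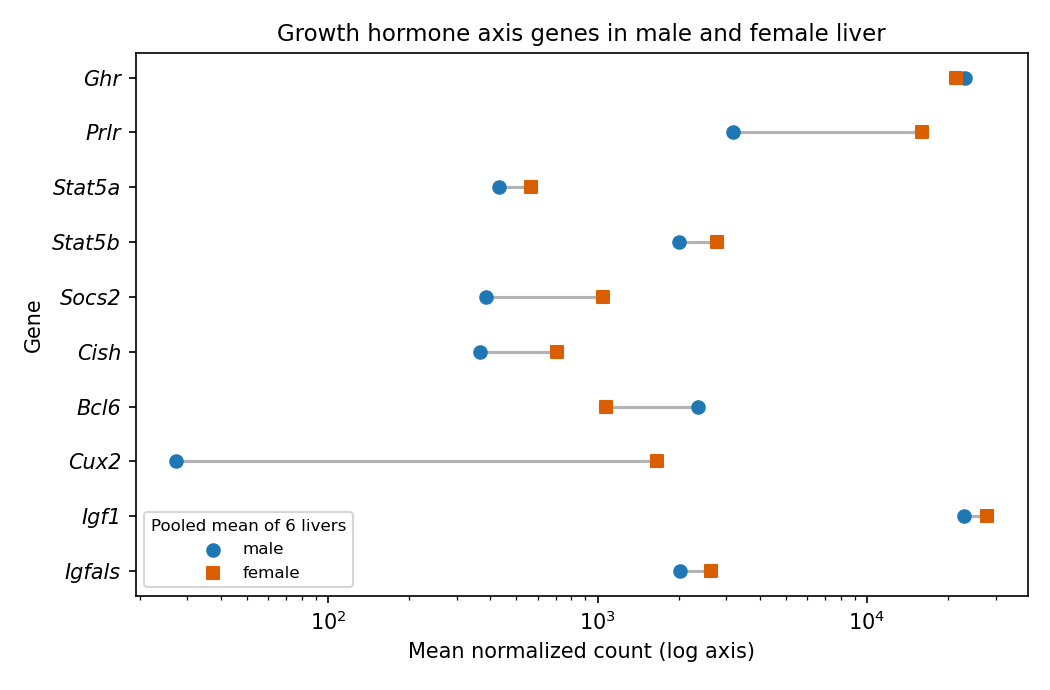
Mean normalized count (horizontal log axis) of each of the 10 axis genes, with a circle for the pooled mean of 6 male livers and a square for that of 6 female livers. Cux2 spans the widest gap, from 27.3 in males to 1658 in females, and Bcl6 is higher in males with 2351 against 1079. No error can be drawn for pooled means.

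A stretch of sequence bears on how these values were counted. Stat5a and Stat5b are neighbouring paralogs, and their longest run of identical coding bases is shown because a read pair that lies wholly inside it matches both genes. It covers bases 571 to 894 of both coding sequences (transcripts Stat5a-201 and Stat5b-201, GRCm39, counted from the start codon), which is 324 bases, and the first 150 are printed.
Stat5a and Stat5b shared run, bases 571 to 720: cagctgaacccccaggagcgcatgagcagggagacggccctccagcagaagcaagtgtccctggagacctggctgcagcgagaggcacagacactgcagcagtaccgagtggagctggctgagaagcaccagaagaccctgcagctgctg

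Bcl6 is shown with the bases before its RefSeq start sites, because it is the 1 axis gene over 2-fold higher in males and each of these windows holds the spaced palindrome TTCNNNGAA, the core recognised by STAT5, whose letters overlap the sites bound by BCL6 itself. Capitals mark every match in the 250 bases before the start. The first window lies directly upstream of the annotated gene and the second in an intron, and both are written 5′ to 3′ on the minus strand of GRCm39.
Bcl6 upstream window, chr16:23807603-23807852: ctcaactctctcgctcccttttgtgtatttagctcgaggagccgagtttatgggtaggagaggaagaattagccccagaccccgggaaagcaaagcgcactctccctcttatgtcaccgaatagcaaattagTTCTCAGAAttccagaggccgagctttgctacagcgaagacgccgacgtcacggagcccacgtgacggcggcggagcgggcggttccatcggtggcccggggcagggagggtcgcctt
Bcl6 intronic window, chr16:23800034-23800283: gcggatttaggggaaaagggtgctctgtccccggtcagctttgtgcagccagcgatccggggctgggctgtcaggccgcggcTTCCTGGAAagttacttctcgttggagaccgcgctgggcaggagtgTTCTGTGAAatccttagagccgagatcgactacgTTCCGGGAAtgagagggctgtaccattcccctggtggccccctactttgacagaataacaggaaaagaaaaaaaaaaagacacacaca

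RefSeq windows were found for 9 of the 10 genes, 18 windows in all, and TTCNNNGAA, which reads the same on both strands in its fixed letters, occurred in 5 windows of 3 genes. Of the 32851 windows of all genes, 7.02% held it. Besides Bcl6, the matches were in 1 Prlr window and 2 Igfals windows, shown here with 10 bases on each side. These 3 windows overlap annotated exons of their own gene in part.
Prlr, plus strand, chr15:10223872-10223900: gcaaaatgagTTCTAGGAAtaagggatat
Igfals, plus strand, chr17:25096572-25096600: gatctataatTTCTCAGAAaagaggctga
Igfals, plus strand, chr17:25097137-25097165: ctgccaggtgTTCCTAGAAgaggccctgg
The same palindrome with a spacer longer by 1 base was in 0 of the 18 windows, against 5.85% of all windows. ATCGAT, a palindrome bound by CUX2 and by the related factor HNF6, was in 1 window, of Cux2 itself, against 0.728% of all windows.
Cux2, minus strand, chr5:122185945-122185970: gctcatctgaATCGATataaagagga
These matches describe the letters in the windows and were not compared with any binding data.

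Among the receptors, Ghr, which encodes the growth hormone receptor (ENSMUSG00000055737, GRCm39 chromosome 15, 3347235 to 3613024), had a mean normalized count of 23123 in males and 21481 in females. The male mean was 1.10-fold the female mean, a log2 ratio of female over male of -0.13. Prlr, which encodes the prolactin receptor (ENSMUSG00000005268, chromosome 15, 10177258 to 10349959), had 3187 in males and 15952 in females, a 4.92-fold difference and a log2 ratio of 2.30. Of the 16283 genes, 38 had a higher ratio than Prlr. Per kilobase of annotated exon, the level of Ghr was 13.3 times that of Prlr in males and 2.48 times in females. This ratio between the receptors needs no scaling between the tables, and it was 5.39-fold larger in males.

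The signal transducers both lay within 2-fold between the sexes. Stat5b (ENSMUSG00000020919, chromosome 11, 100671556 to 100741589), the main STAT5 form in hepatocytes, had a mean of 2003 in males and 2786 in females. Its log2 ratio was 0.45, and 13.0% of the 16283 genes had a higher one. Stat5a (ENSMUSG00000004043, chromosome 11, 100750177 to 100776065) had a mean of 432 in males and 564 in females, a log2 ratio of 0.36. Per kilobase, the level of Stat5b was 5.54 times that of Stat5a in males and 5.89 times in females, so their balance differed 1.06-fold between the tables. The genes lie 8587 bases apart and their coding sequences were identical at 90.7% of 2343 aligned bases. Of the 31-base words in annotated exons, 19.3% for Stat5a and 12.3% for Stat5b occurred more than once in the genome. Words also present in exons of the other gene were 9.38% of all words for Stat5a and 12.0% for Stat5b. Much of the repeated sequence of Stat5a is thus not shared with Stat5b. Only uniquely mapped reads were counted. Longer read pairs can be unique where such words are not, and the reads lost were not measured, so each gene's own value is uncertain by an unknown amount.

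The feedback genes were both higher in the female mean. Socs2 (ENSMUSG00000020027, chromosome 10, 95219523 to 95253929), which encodes a suppressor of cytokine signaling that acts on the growth hormone receptor, had 385 in males and 1051 in females. This was a 2.68-fold difference with a log2 ratio of 1.42, and 136 genes had a higher ratio. Cish (ENSMUSG00000032578, chromosome 9, 107173225 to 107179983), the STAT5-induced relative of Socs2, had 367 in males and 709 in females. Its 1.90-fold difference, a log2 ratio of 0.92, lay just inside the 2-fold limit, and Bcl6 at 2.22-fold was the nearest gene outside it. Set against Stat5b in the same table, the mean of Socs2 was 0.192 in males and 0.377 in females, and that of Cish was 0.183 and 0.255. Those ratios to Stat5b are of counts, without regard to length, so they serve only to compare the sexes. Per kilobase of annotated exon, the level of Socs2 was 0.441 times that of Cish in males and 0.624 times in females. With the longest transcript as the length, Socs2 stood at 65.9 and Cish at 78.1 in males. In females that length put Socs2 above Cish, at 180 against 151. The antisense gene 5730420D15Rik, which shares 689 exonic bases with Socs2, had means of 2.92 and 23.7, and the authors' counting separated the strands. Of the 31-base words of Socs2, 9.31% were repeated in the genome, and the reads lost to this were likewise not measured.

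The STAT5-dependent repressors pointed in opposite directions. Cux2 (ENSMUSG00000042589, chromosome 5, 121994429 to 122188521), a homeobox repressor of male-biased genes in female liver, had a mean of 27.3 in males and 1658 in females. The difference was 59.7-fold, a log2 ratio of 5.90, and 7 of the 16283 genes had a higher ratio. Bcl6 (ENSMUSG00000022508, chromosome 16, 23783802 to 23807602), a zinc finger repressor, had 2351 in males and 1079 in females. The male mean was 2.22-fold the female mean, a log2 ratio of female over male of -1.15, and 188 genes had a lower ratio. Per kilobase, Bcl6 stood at 146 times the level of Cux2 in males and 1.10 times in females. The balance of these genes thus differed 132-fold between the tables, again without any scaling between them.

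The output genes each lay within 2-fold between the sexes. Igf1 (ENSMUSG00000020053, chromosome 10, 87693642 to 87772904), which encodes insulin-like growth factor 1, had 22908 in males and 27878 in females, a log2 ratio of 0.26. Igfals (ENSMUSG00000046070, chromosome 17, 25084971 to 25100984), whose product holds IGF1 in a complex in the blood, had 2015 in males and 2639 in females, a log2 ratio of 0.36. Over the 16283 genes the central range of the log2 ratio, from the 5th to the 95th percentile, was -0.52 to 0.72, which contains Igf1 and Igfals as well as Ghr, Stat5a and Stat5b. That range holds differences between the sexes as well as the spread between mice, and it is not a replicate error. Per kilobase, Igf1 was 3.53 times Igfals in males and 3.28 times in females.

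**Figure D2:**
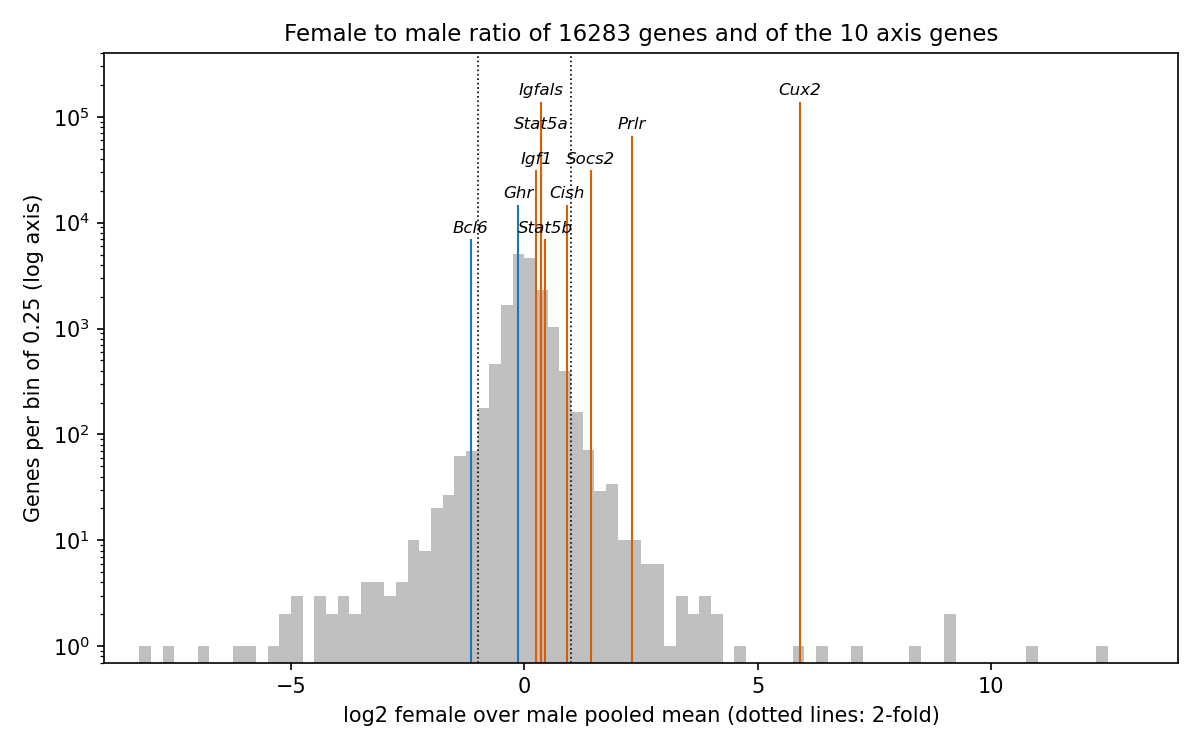
Histogram of the log2 ratio of the female over the male pooled mean for 16283 genes (grey bars of width 0.25, vertical log axis), with a coloured line for each of the 10 axis genes at its own ratio and dotted lines at 2-fold. Cux2 at 5.90, Prlr at 2.30 and Socs2 at 1.42 lie to the right of the upper limit, Bcl6 at -1.15 lies to the left of the lower one, and the height of the coloured lines carries no value.

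Ordered by mean normalized count per kilobase of annotated exon, the level in males ran from Ghr at 2290 and Igf1 at 2238 through Igfals at 634, Bcl6 at 351, Stat5b at 289.5 and Prlr at 172 to Cish at 57.2, Stat5a at 52.3, Socs2 at 25.2 and Cux2 at 2.40. In females Igf1 led at 2724, followed by Ghr at 2128, Prlr at 859, Igfals at 831, Stat5b at 403, Bcl6 at 161, Cux2 at 146, Cish at 110.4, Socs2 at 68.9 and Stat5a at 68.3. Among 13614 protein-coding genes, Ghr lay above 97.6% in males and 97.3% in females, and Cux2 above 5.68% in males and 68.5% in females. Without a spread it cannot be said which neighbours in these orders differ. With the longest transcript as the length, Stat5a and Cish changed places in males, as did Ghr and Igf1 in females, where the order of Socs2, Cux2 and Cish also changed.

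**Figure D3:**
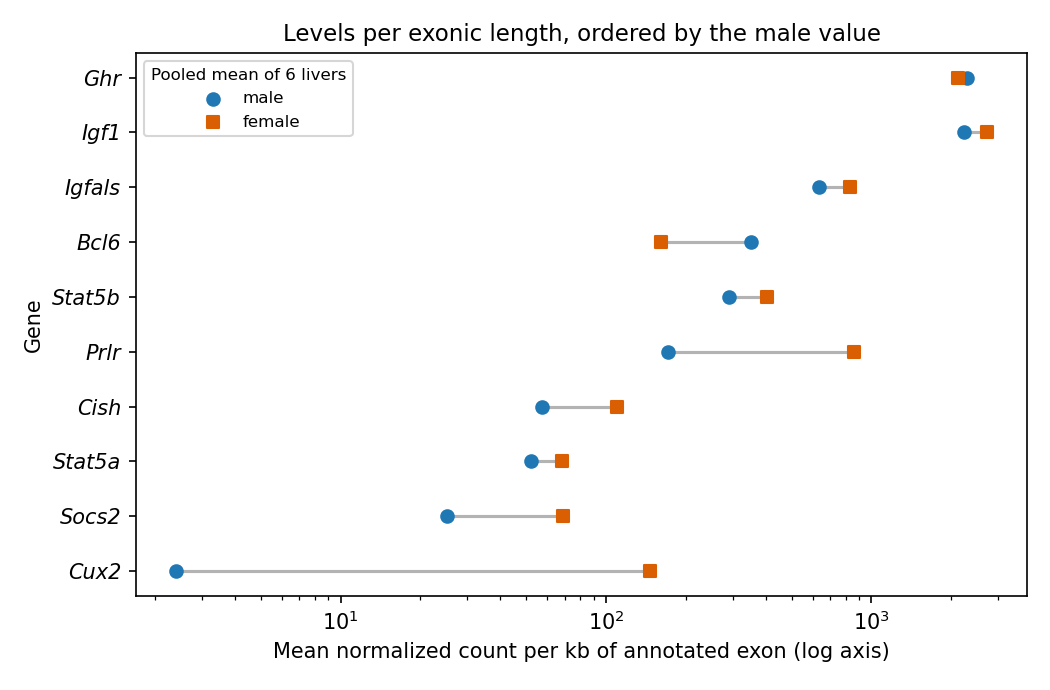
Mean normalized count per kilobase of annotated exon (horizontal log axis) of the 10 axis genes, ordered from the highest to the lowest male value, with circles for the pooled mean of 6 male livers and squares for that of 6 female livers. Ghr and Igf1 stand at the top in both sexes, while Cux2 moves from 2.40 in males to 146 in females and Prlr from 172 to 859.

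Beyond the 10 genes, 28 genes were examined as a list of other pathway genes. That list is broad and also holds receptors and transcription factors outside growth hormone receptor signaling, such as Lepr, Hnf4a, Foxa2 and Nr3c1. The ligands Gh and Prl, which are made in the pituitary, were listed at 0 in the male table. Of the 28, 25 had a mean of at least 10 in both tables, and 1 of these, Lepr, was over 2-fold apart. Lepr, which encodes the leptin receptor, had 173 in males and 654 in females, a log2 ratio of 1.89. The other 24 lay within 2-fold, and the median over the 25 was -0.07. Jak2, the kinase bound to the growth hormone receptor, had 1025 in males and 957 in females, a log2 ratio of -0.12. Socs1 and Socs3, the suppressors related to Socs2, had log2 ratios of 0.09 and -0.11, while Socs7 had -0.82 with 1005 in males and 580 in females. Onecut1, which encodes HNF6, had 849 in males and 535 in females, a log2 ratio of -0.69. Hnf4a had the highest level per kilobase of this list, 4606 in males and 3948 in females.

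Of 16 genes of the IGF system, 12 had a mean of at least 10 in both tables and 0 were over 2-fold apart, with log2 ratios from -0.32 to 0.95 and a median of 0.09. Pappa, which encodes a protease that cleaves IGF-binding proteins, had the highest ratio, 0.95, on low means of 17.5 in males and 34.4 in females. Igfbp3 and Igfbp5, whose products form the complex with IGF1 and the protein of Igfals, had log2 ratios of 0.20 and 0.71. Igfbp4 had the highest level per kilobase, 8771 in males and 8300 in females. The receptor genes Igf1r and Insr had 370 and 11563 in males and 416 and 11872 in females. Igf2, a fetal growth factor, had a mean of 0.131 in males, the lowest above 0 on this list.

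**Figure D4:**
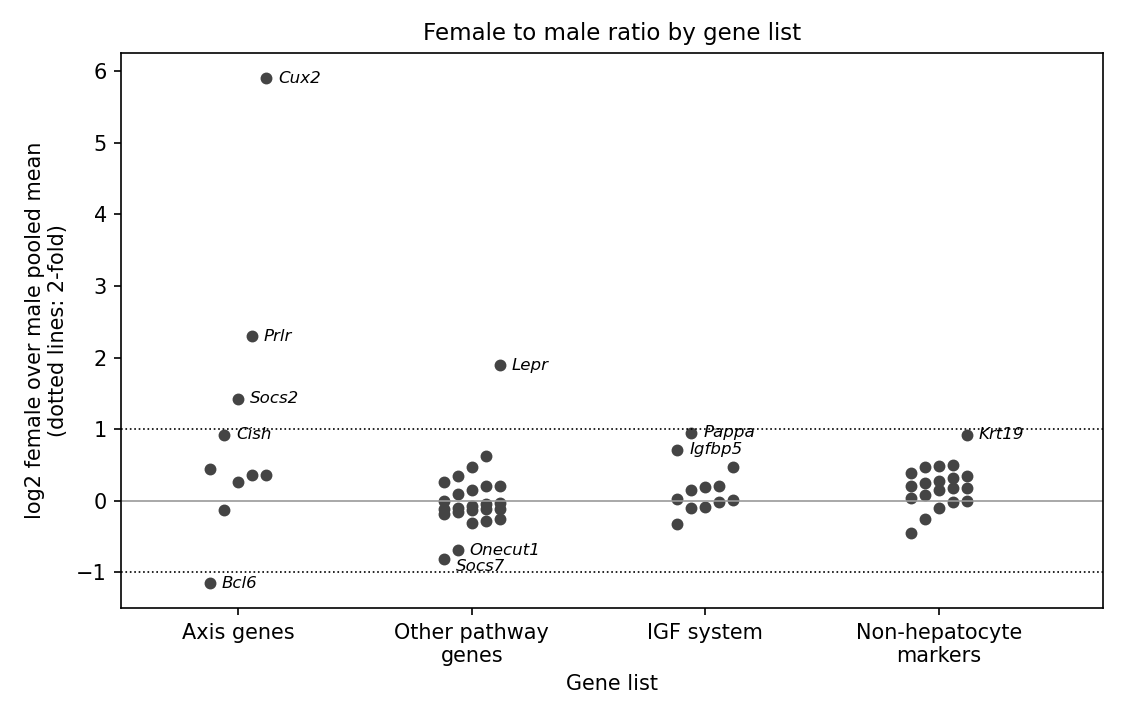
Log2 ratio of the female over the male pooled mean (vertical axis, dotted lines at 2-fold) for the genes with a mean of at least 10 in both tables, 1 point a gene, in the 10 axis genes, 25 other pathway genes, 12 genes of the IGF system and 20 markers of liver cells other than hepatocytes. Only Cux2, Prlr, Socs2, Bcl6 and Lepr lie outside the dotted lines.

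The tables carried the marks of their labels. Xist had a mean of 14.0 in males and 72478 in females, and 4 Y-linked genes had means of 964 to 3147 in males and were not listed in the female table. All 8 genes known for higher expression in male liver were over 2-fold higher in males, with log2 ratios from -7.64 to -1.40. Of 6 genes known for higher expression in female liver, 5 were listed in both tables. These 5 had means of 0.576 to 13.0 in males and 225 to 24118 in females. The remaining gene, A1bg, had 0.773 in males and was not listed for females, so no higher female mean was seen for it. The hepatocyte markers had means of 38633 to 2332943 over both tables. All 20 markers of Kupffer cells, sinusoidal endothelium, stellate cells, cholangiocytes and lymphocytes had means above 0 in both tables and lay within 2-fold, with log2 ratios from -0.45 to 0.92. Of these 20 ratios, 16 were above 0 and 4 below, with a median of 0.19. Of the 6 hepatocyte markers, 2 were above 0 and 4 below. The 4 stellate cell markers were all higher in the female mean, by 0.32 to 0.48, with summed means of 9548 in males and 12582 in females, and their part in the ratios of the axis genes was not tested. In whole liver, fewer cells of a type and less RNA per cell cannot be told apart. Midn, the trapped gene, had pooled means of 1672 in males and 1357 in females, which mix both genotypes and so do not check the trap.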

How the data were processed

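Per the labels and the methods, the authors aligned stranded reads to GRCm39 with STAR (2.7 in the submitters' processing notes), counted uniquely mapped reads per Ensembl gene with HTSeq, and ran DESeq2 for each sex. The signal used here is the authors' deposited mean of size-factor-normalized counts over 6 samples of 1 sex. The deposited RNA-seq tables also hold fold changes, standard errors, test statistics and p-values of the authors' comparison of WT with Midn-T, and the 2 ATAC-seq lists hold positions and directions only. None of these was used.

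Genes were joined by Ensembl identifier. The female table lists means of 6.61 or more. The means summed to 3.03e+07 in males and 3.08e+07 in females. Ratios were centred on the median of protein-coding genes with means of at least 10, and over 2-fold counted as a difference, with no test. On counts simulated with known large changes and no spread between mice, the ratios were recovered. This checks the calculation only and says nothing about the spread between livers or about ratios near 2-fold. Lengths are merged GENCODE M39 exons, an annotation later than the one counted. Promoter windows come from a RefSeq table on GRCm38.p6 and were placed on GRCm39 by exact match of 250 bases. Analyses used Python 3.11.15, numpy 2.4.6, pandas 2.3.3, numba 0.67.0, biopython 1.88 and matplotlib 3.10.9. All 10 members, and genes of the other lists by level, by a ratio over 2-fold or by a direct link to a member, are named. Onecut1, Socs7, Pappa, Insr and Igfbp5 were chosen after their values were seen. The members and lists were chosen with earlier results of these data known. Alternatives were other scalings, minimums, folds, a pseudocount and another gene length.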

Additional observations from a re-analysis of the deposited data

How the results depend on the processing

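Other scalings between the tables (as deposited, by the sum over shared genes, or by that sum without the 10 largest genes), minimum means of 100 or none and a pseudocount of 1 moved the log2 ratios of the axis genes by at most 0.05, and 0 of the 59 values changed sign. Except for the pseudocount, each of these settings shifted all genes by the same offset, so the 59 values are not separate checks. The count over 2-fold higher in females stayed at 3 except with a minimum mean of 100, which Cux2 does not reach in males and which left 2 genes. The share of all genes over 2-fold higher in females moved more, from 2.14% to 1.08% with a minimum of 100 and 3.93% with none. That higher in males went from 1.43% to 0.964% and 1.48%. Female means are listed only from 6.61 upward, while male means run down to 0. Without a minimum, genes low in males could thus enter and genes low in females could not, so those shares cannot be compared between the sexes. At 1.5-fold, 4 axis genes were higher in females and 1 in males, against 7.94% and 3.96% of all genes. At 3-fold, 2 were higher in females and 0 in males, against 0.626% and 0.559%. With the longest transcript as the length, the place in the order changed for 2 genes in males and 5 in females. Ratios per kilobase between 2 genes also depend on the length used. With the longest transcript, Stat5b stood at 362 and Stat5a at 90.9 in males, against 289.5 and 52.3 with merged exons. The change of such a ratio between the sexes does not depend on length. No paired analysis was possible because the tables hold 1 mean a sex, and for the same reason no replicate could be left out. Counts per library were not used, so the limit that depth sets cannot be stated. The lowest mean among the axis genes is that of Cux2 in males, 27.3.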
